A study of Bos taurus with 48 samples.

Results

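The comparison set the transcriptome of the oocyte against that of the outer cumulus cells (outerCCs) of the same cumulus-oocyte complex (COC) in cattle (Bos taurus). It used 32 of the 48 libraries of the series, namely the 16 oocyte libraries and the 16 outerCC libraries that carry the same COC numbers. The 16 libraries of inner cumulus cells were not analysed here. The COCs were aspirated from antral follicles of ovaries of slaughtered cows, were chosen for even cytoplasm and several layers of cumulus, and received no treatment, and neither breed, age nor the animal behind each COC is given in the sources used here. The outer layers came off in a first round of trypsin and pipetting and were frozen. The oocyte was frozen after a second such round and washes, so that sample type and this handling cannot be told apart. An oocyte library holds the RNA of a single cell freed of its cumulus. An outerCC library holds the pooled outer layers of 1 COC. PolyA+ RNA of both was amplified with SMART-seq2, a protocol for very small RNA inputs, but cumulus RNA was first purified with TRIzol while oocytes were lysed directly, so that the sample type and the way of RNA preparation cannot be told apart. Values are FPKM (fragments per kilobase of transcript per 1000000 fragments), and differences are oocyte minus outerCC on the log2(FPKM + 1) scale with their standard error (SE), fitted within COCs. This scale understates differences of genes with low FPKM.

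The oocyte and the cumulus cells depend on each other throughout the growth of the follicle. The oocyte secretes growth factors of the TGF-beta family that act on the cumulus, and the cumulus passes metabolites and cyclic nucleotides to the oocyte through long projections that cross the zona pellucida and end in gap junctions. A fully grown oocyte stays arrested in the prophase of the first meiotic division, transcribes little, and stores the maternal mRNA that later carries meiosis and the first cleavages. Cumulus cells are granulosa-derived somatic cells that take up glucose, make steroids and, before ovulation, build a matrix rich in hyaluronan.

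The libraries carried the transcripts of their labelled type. The sum of 11 oocyte markers ranged from 1081 to 3189 FPKM in oocytes, with a median of 2550. In outerCCs its median was 1.82 FPKM, and 14 of the 16 libraries were at or under 3.84 FPKM. The sum of 8 cumulus and granulosa markers had a median of 2153 FPKM in outerCCs and of 10.1 FPKM in oocytes. It included IGFBP2, which was higher in oocytes, with medians of 5.49 FPKM there and 0.0855 FPKM in outerCCs. The other 7 markers had oocyte medians of 0 to 0.496 FPKM. The marker sums did not overlap between the types. The outerCC library of COC 191, however, held 579 FPKM of oocyte markers, and the outerCC library of COC 190 held 104. In the other direction, the oocyte library of COC 191 held 199 FPKM of cumulus markers and the oocyte library of COC 181 held 51.2. Over 268 genes that exceeded a difference of 5 without COC 191, the summed FPKM of the outerCC library of COC 191 came to 29.7% of that of its oocyte library, against 6.81% in COC 190 and 0.407% to 1.36% in the other 14 COCs. Over 147 genes under −5, the oocyte library of COC 191 reached 12.3% of its outerCC library and that of COC 181 reached 7.94%. Values without COC 191 are therefore given for the counts over all genes and for some genes in which a library of COC 191 stood far from the others. All other differences include COC 191. Among those genes are CLDN10, MT3, MAEL, TEX12, KPNA7 and INHBA, in which a library of COC 191 also stood far from the others. The outerCC library of COC 191 held 111 FPKM of CLDN10 and 62.5 FPKM of MAEL.

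**Figure D1:**
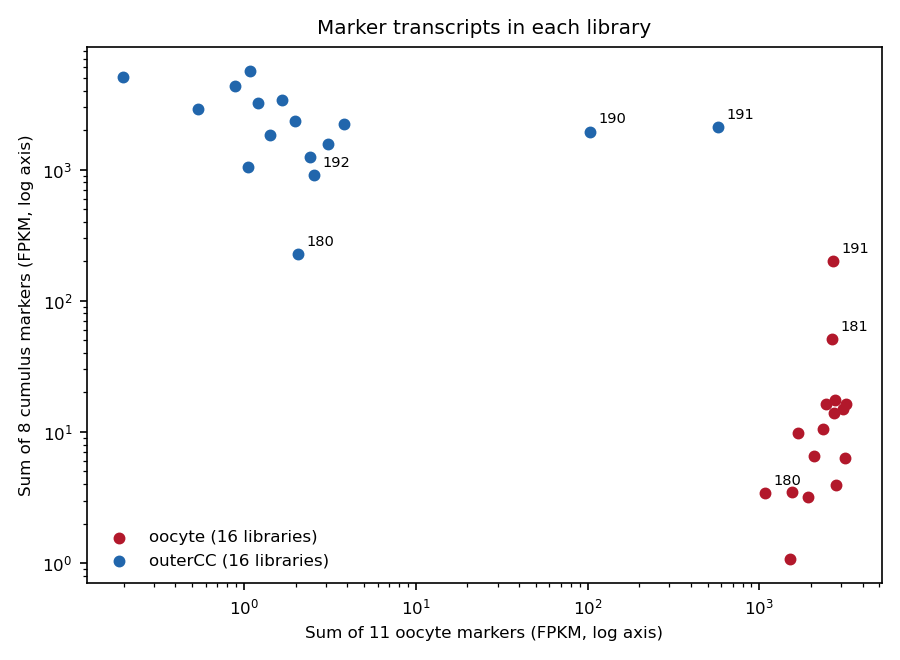
Summed FPKM of 11 oocyte markers (x axis, log) against 8 cumulus and granulosa markers (y axis, log), with 1 point per library and COC numbers at the libraries that stand apart. The oocyte libraries lie at the lower right and the outerCC libraries at the upper left, with the outerCC libraries of COCs 190 and 191 displaced towards the oocytes.

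Oocytes and outerCCs differed in most of their transcripts. Of the 24616 genes listed, 12422 exceeded 0.5 FPKM in 8 or more libraries of either type and were tested. At a Benjamini-Hochberg FDR under 0.01 in limma, 5392 genes (43.4%) were higher in oocytes and 4230 (34.1%) were lower, together 77.5%. A difference above 1 was reached by 4324 of the higher and 3217 of the lower genes, and one above 5 by 233 and 131. In 3187 of the higher and 2131 of the lower genes, all 16 COCs went the same way. All 16 oocytes lay above all 16 outerCCs for 1689 genes (13.6%), and all outerCCs lay above all oocytes for 1099 (8.85%). Without COC 191, 5303 genes (42.7%) were higher and 4219 (34%) lower, and 9489 of the 9622 calls were kept.

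Detection in a single type made up a large part of these calls. Genes detected in both types, over 0.5 FPKM in 8 or more libraries of each, numbered 8364, of which 3594 (43.0%) were higher and 2350 (28.1%) lower in oocytes. Another 1963 genes were detected in oocytes alone and 2095 in outerCCs alone. These passed the filter through the type in which they are high, and their direction is not independent of it. Of the former 1798 (91.6%) were called higher in oocytes and of the latter 1880 (89.7%) lower, which is the background for list members detected in a single type. FPKM are relative, since each library is divided by its own total, and in such bulk libraries fewer cells of a type, less RNA per cell and more RNA of other genes cannot be told apart. The median difference over all genes tested was 0.26, and it moved to −0.32, 0.04, −0.10 and 0.01 when libraries were scaled by the 75th percentile, by their sum, by median of ratios and by quantiles. The split of higher against lower genes moved with it to 4268 and 5637, 4988 and 4803, 4769 and 5198, and 5055 and 4932. Under all 4 scalings, 4254 of the higher and 4197 of the lower genes remained called the same way.

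**Figure D2:**
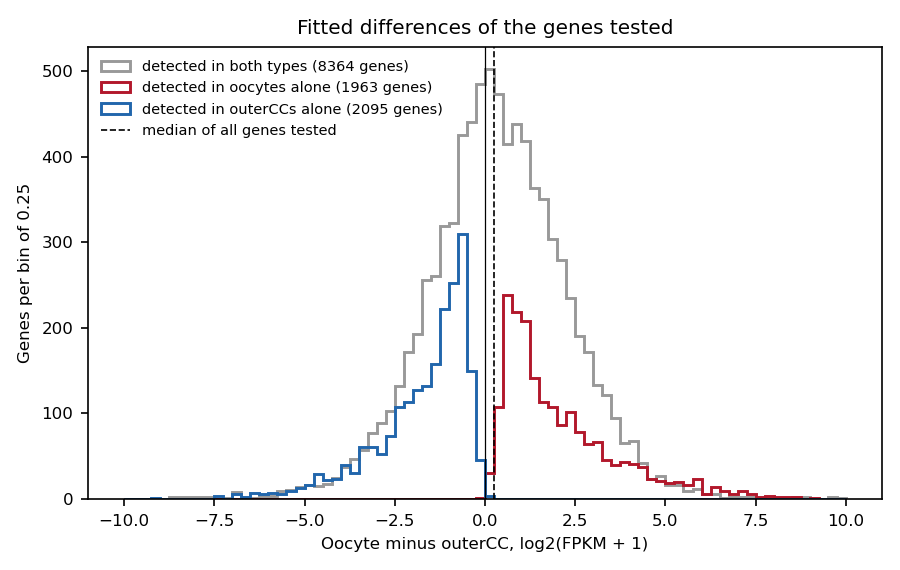
Number of genes per bin of 0.25 (y axis) by fitted difference, oocyte minus outerCC on the log2(FPKM + 1) scale (x axis), for 8364 genes detected in both types, 1963 in oocytes alone and 2095 in outerCCs alone. Genes detected in both types spread on either side of 0, and the dashed line marks the median of 0.26.

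The 12 named genes of largest excess in oocytes included genes of meiosis, both oocyte growth factors GDF9 and BMP15, and germ-line forms of common proteins, beside others of various roles. SPATA22 (ENSBTAG00000015763), a meiotic recombination factor, ranged from 263 to 871 FPKM in oocytes (median 546) and had a median of 0.237 FPKM in outerCCs, a difference of 8.29 (SE 0.43, adjusted p = 1.2e-13). SYCP3 (ENSBTAG00000002492), of the lateral element of the synaptonemal complex, ranged from 196 to 575 FPKM against a median of 0.412 FPKM, a difference of 7.46. GDF9 (ENSBTAG00000009478), an oocyte growth factor that acts on the cumulus, ranged from 347 to 1013 FPKM against a median of 0.373 FPKM, a difference of 8.14 (SE 0.41). In all 3, every oocyte lay above every outerCC library, and the highest outerCC value was that of COC 191 (116, 125 and 186 FPKM), whereas the next highest was 6.07, 10.1 and 5.02. Without COC 191 their differences were 8.72, 7.87 and 8.56. BMP15, the close relative of GDF9, differed by 7.87 and the importin KPNA7, which carries proteins into the oocyte nucleus, by 7.76. LDHC, the germ-line lactate dehydrogenase, ranged from 190 to 472 FPKM in oocytes and differed by 7.46 (SE 0.38), and GTF2A1L, the germ-line form of a general transcription factor subunit, differed by 7.41. Among the 12 named genes of largest excess were also the tight junction protein CLDN10 (difference 8.21), the metallothionein MT3 (7.83), the seminal plasma protein family member BSP1 (7.44) and RGS2 (7.77), a brake on G-protein signalling that was abundant in oocytes (781 to 1447 FPKM). The identifier named U1 differed by 7.65, but U1 small nuclear RNA is a family of many near-identical copies and its value is uncertain. Still larger differences belonged to unnamed identifiers, the largest being ENSBTAG00000027348, which ranged from 2427 to 7311 FPKM in oocytes and differed by 9.84 (SE 0.63).

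The 12 named genes of largest excess in outerCCs included inhibin and activin subunits, immediate early genes and secreted or matrix-associated proteins, beside others. INHA (ENSBTAG00000009972), the alpha subunit of inhibin, ranged from 167 to 3430 FPKM in outerCCs (median 1402) and had a median of 0.366 FPKM in oocytes, a difference of −9.11 (SE 0.48, adjusted p = 1.6e-13), or −9.48 without COC 191. INHBA, the subunit of activin A, had medians of 458 and 0.328 FPKM and a difference of −7.50. JUN (ENSBTAG00000004037), a subunit of the AP-1 transcription factor, ranged from 131 to 669 FPKM in outerCCs and from 0.326 to 12.4 in oocytes, a difference of −6.82 (SE 0.39). FOS, its partner, differed by −8.67 and CYR61, a secreted matrix-associated protein, by −7.32. The oocyte values of FOS were unequal, at 110 FPKM in COC 191, 29.4 in COC 181 and 23.6 in COC 178, and at or below 2.83 in the other 13, and without COC 191 its difference was −9.05. IHH, the Indian hedgehog ligand of the follicle, ranged from 17.4 to 433 FPKM in outerCCs against a median of 0.107 FPKM in oocytes, a difference of −6.80. SERPINH1, the collagen chaperone, ranged from 31.8 to 505 FPKM against a median of 0 FPKM, a difference of −6.89 (SE 0.33), and no oocyte other than that of COC 191 exceeded 0.776 FPKM. The apolipoprotein APOA1 (−7.28), a metallothionein listed as MT1E under ENSBTAG00000001595 (−7.26), C11H2orf40 (−6.90), the prostaglandin reductase PTGR1 (−6.52) and the keratin KRT2 (−6.50) completed the 12 named genes of largest deficit in oocytes. A second identifier listed as MT1E, ENSBTAG00000038706, differed by −2.79.

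The 10 most abundant named transcripts of each type were of various roles. In oocytes they included RGS2 and U1, described above. CETN3, a centrin of the centrosome, ranged from 937 to 1932 FPKM in oocytes and from 22 to 422 in outerCCs, a difference of 4.02 (SE 0.25, adjusted p = 1.2e-12). AURKA, the Aurora kinase of the meiotic spindle, ranged from 402 to 1879 FPKM against 7.81 to 246 FPKM, a difference of 5.32, and YPEL5 from 677 to 1928 against 12.7 to 338, a difference of 5.69. ENY2, a subunit of the SAGA and mRNA export complexes, ranged from 590 to 1260 FPKM against 36.6 to 284 FPKM, a difference of 3.09. PPA1, a pyrophosphatase, differed by 5.18, and for these 5 every oocyte lay above every outerCC library. In outerCCs they included INHA and FOS, described above, and genes of the cytoskeleton and of translation. ACTB, cytoplasmic actin, ranged from 520 to 4053 FPKM in outerCCs and from 90.4 to 351 in oocytes, a difference of −3.56 (SE 0.24). EEF1G, an elongation factor, had medians of 685 and 74.9 FPKM and differed by −3.06, and the ribosomal proteins RPLP1 and RPS27A differed by −1.95 and −1.51. RACK1, a scaffold bound to the ribosome, differed by −2.02 and the splicing regulator HNRNPA1 by −1.97. Reads of such genes can be shared with processed pseudogenes. Of the other genes in the 10 most abundant, MRPL20 (3.37) and NDUFB1 (1.30) were higher in oocytes, whereas CALM (0.68, adjusted p = 0.00457) was called as deposited but not under all 4 scalings and changed sign with the 75th percentile, and NDUFS4 (−0.63, adjusted p = 0.0117) was not called. ENY2 is the qPCR target of the study that has an identifier here, and its pair of oligonucleotides, shown as the designed sequences behind an independent assay of this gene, reads 5′ to 3′ as follows, with no capitals since no part is singled out.
ENY2 first oligonucleotide: ctcgcccgcggtgatg
ENY2 second oligonucleotide: tttgaggcgttctctttctcca

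Genes of meiosis, of transposon silencing and of maternal mRNA storage were mostly detected in oocytes alone. Gene symbols were available for 83.3% of the genes detected in oocytes alone and 72.9% of those in outerCCs alone, but for 12.2% of those detected in both, so the counts of every list below lean towards genes of a single type and are descriptions. All 12 tested members of the meiotic cohesin and synapsis list were higher, with a median difference of 2.25 against 1.57 for all genes detected in oocytes alone. All 12 passed the filter through the oocytes, and 91.6% of such genes were called higher, so that this count says nothing particular about them. SMC1B, the meiotic cohesin subunit, ranged from 24.2 to 80.1 FPKM in oocytes against a median of 0 FPKM in outerCCs, a difference of 5.31, and TEX12, of the central element of the synaptonemal complex, from 42.5 to 131 FPKM, a difference of 5.96. These proteins work in the prophase that precedes the arrest, and their transcripts were still present in these grown oocytes. At the other end of this list SYCE1 (0.73, adjusted p = 0.00265) and the mismatch repair homologue MSH4 (0.74) had medians of 0.527 and 0.569 FPKM in oocytes.

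All 11 tested members of the piRNA pathway, which silences transposons in the germ line, were also detected in oocytes alone and called higher, against 91.6% of such genes. MAEL ranged from 146 to 287 FPKM in oocytes against a median of 0.152 FPKM in outerCCs, a difference of 7.18 (SE 0.34). ASZ1 (4.42), PLD6 (4.17) and the helicase DDX4 (4.16) followed. Among the PIWI proteins, which bind the piRNAs, PIWIL3 had the highest level, with a median of 8.47 FPKM and a difference of 2.91, whereas PIWIL1 (1.29 FPKM, 1.17) and PIWIL2 (1.98 FPKM, 1.13) were lower than PIWIL3 in median FPKM, a unit that accounts for transcript length.

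Of 9 genes of maternal mRNA storage and decay, 8 were higher in oocytes. Detection in oocytes alone held for 7 of the 9, and 91.6% of such genes were called higher. EIF4E1B, the oocyte form of the cap-binding protein, ranged from 19.9 to 373 FPKM in oocytes and differed by 6.32, and ZAR1, which binds and stores maternal mRNA, by 5.95. CNOT7, a deadenylase, was detected in both types and ranged from 107 to 280 FPKM in oocytes against 10.2 to 69.8 FPKM in outerCCs, without overlap, a difference of 2.18 (SE 0.22). ZFP36L2, a protein that marks mRNA for decay, was the exception at −2.07. Of 7 maternal-effect genes 6 were higher, led by NLRP9 (7.0) and NLRP14 (6.79), and UCHL1, detected in both types, was not called (−0.48, adjusted p = 0.0312). All 6 were detected in oocytes alone, where 91.6% of genes were called higher. Among 9 transcription factors of the oocyte, FIGLA, which directs zona pellucida genes, differed by 7.0 and LHX8 by 5.82. LHX8 was also the most even, from 52.6 to 105 FPKM, whereas NOBOX spanned 0.728 to 47.3 FPKM in oocytes and differed by 2.70. GATA6 was lower in oocytes (−4.60), and TAF4B was not called (0.21, adjusted p = 0.302).

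Of 9 genes of the meiotic cell cycle 6 were higher in oocytes, and 3 of these were detected in oocytes alone, where 91.6% of genes were called higher. Of the 5 detected in both types 3 were higher, against 43% of such genes. MOS, the kinase that keeps the egg arrested later on, ranged from 16.7 to 564 FPKM in oocytes (median 217) and differed by 6.45. FBXO43, an inhibitor of the anaphase-promoting complex, differed by 3.98, and MAD2L1, of the spindle checkpoint, by 3.18 with no overlap between 148 and 561 FPKM in oocytes and 8.70 and 122 FPKM in outerCCs. AURKB (1.25) was called as deposited but not under all 4 scalings, WEE1 was lower (−2.71), and 2 members were not called.

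Several related genes with different expression changed places between oocyte and cumulus. Such a ratio is taken within a library and does not depend on how libraries are scaled, apart from the pseudocount. H1FOO, the linker histone of the oocyte, exceeded the somatic replacement histone H1F0 by a mean of 5.95 (SD 1.34, n = 16) in oocytes, and the mean was −4.14 (SD 2.40) in outerCCs. WEE2, the oocyte kinase that holds the meiotic arrest, exceeded WEE1 by 6.90 (SD 2.02) in oocytes and had a mean of −2.76 (SD 1.85) relative to it in outerCCs. For the cohesin subunits STAG3 and STAG2 the means were 1.69 (SD 0.69) and −1.54 (SD 0.59). In all 3 pairs the first gene led in 16 of 16 oocytes, and in outerCCs it led in 2, 1 and 0 libraries. The outerCC exception for WEE2 was COC 191. In the importins KPNA7 and KPNA2 both genes were higher in oocytes, with mean ratios of −0.53 (SD 0.71) and −5.17 (SD 1.71), and likewise in EIF4E1B and EIF4E, with −2.59 (SD 1.05) and −5.48 (SD 0.83). For the phosphodiesterases PDE3A and PDE3B the oocyte ratio was 1.16 (SD 0.76). TAF4B and TAF4 went the other way, at −1.64 (SD 0.58) in oocytes and −0.44 (SD 0.42) in outerCCs. Chosen after their values were seen, 3 more pairs also differed. SLC25A31, the germ-line ADP/ATP carrier, exceeded SLC25A6 by 2.33 (SD 1.67) in oocytes and had a mean of −8.62 (SD 1.26) in outerCCs, and PPA1 exceeded the mitochondrial PPA2 by 7.99 (SD 0.93) in oocytes against −0.63 (SD 1.15). RAB3C and RAB3A, GTPases of regulated secretion, had means of 7.12 (SD 0.86) and −0.55 (SD 1.82).

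**Figure D3:**
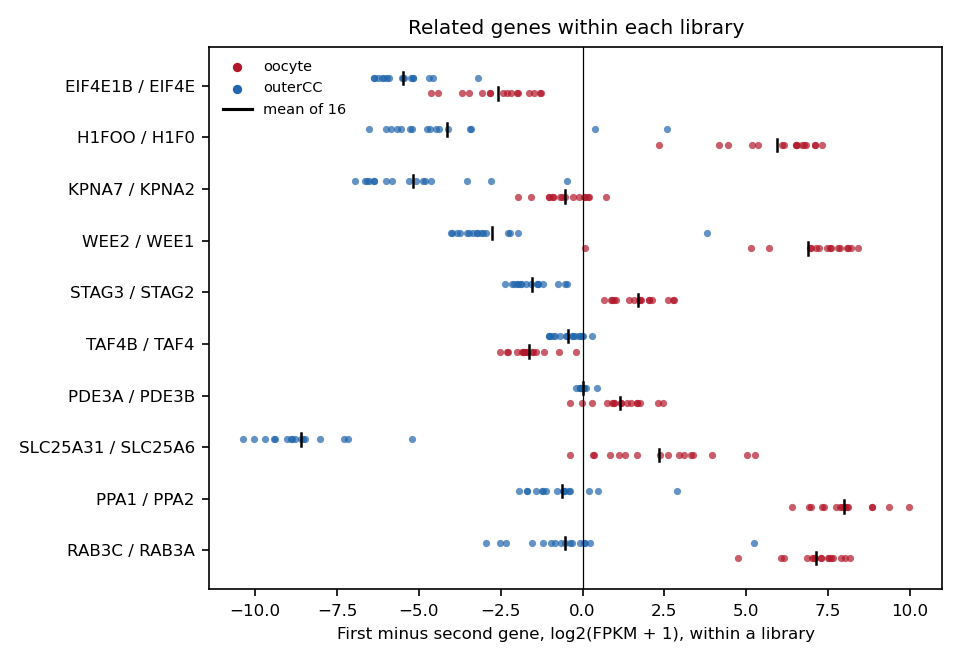
Difference between the related genes of each pair, first minus second on the log2(FPKM + 1) scale (x axis), with 1 point per library, oocytes in red, outerCCs in blue and the mean of 16 as a black bar. The oocyte mean lies to the right of the outerCC mean in every pair shown except TAF4B and TAF4, with overlap of single libraries in several pairs, and the isolated blue point of WEE2 and WEE1 is COC 191.

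The signals of the TGF-beta family and the parts that receive them were divided between the 2 types. All 5 tested members of the list of oocyte secreted factors were higher in oocytes, namely GDF9, BMP15, BMP4, BMP6 and FGF16, the last of another family. Each of the 5 was detected in oocytes alone, where 91.6% of genes were called higher. BMP4 had a median of 5.82 FPKM in oocytes and differed by 2.27, and BMP6 had a median of 1.75 FPKM and differed by 1.36. The inhibin and activin subunits INHA, INHBA and INHBB (−2.43) and the BMP antagonists CHRD (−2.26) and CHRDL1 (−2.36) were higher in outerCCs, 5 of 7 in that list, and the other 2 were not called. Of the 7, 6 were detected in outerCCs alone, where 89.7% of genes were called lower in oocytes.

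Receptors and SMADs, most of them detected in both types, leaned towards the oocyte. Of 13 tested, 10 were higher in oocytes, 0 were lower, and 7 of the 10 were so under all 4 scalings. Of the 10 detected in both types, 7 were higher, against a background of 43% for such genes. Most of these symbols came from a sheet of ligands and receptors, of whose 1045 tested genes 38.2% were higher and 33.1% lower in oocytes. The type I receptor ACVR1 (ENSBTAG00000011909) ranged from 24.5 to 85.0 FPKM in oocytes and from 0.357 to 8.74 in outerCCs, the latter maximum in COC 191, a difference of 4.15 (SE 0.22, adjusted p = 1.6e-13), or 4.30 without COC 191. BMPR1B ranged from 10 to 26.5 FPKM against a median of 1.36 FPKM and differed by 2.82, and BMPR1A from 10.2 to 40.4 FPKM against 0.252 to 3.95 FPKM, without overlap, and differed by 2.55. TGFBR1, a type I receptor for TGF-beta and GDF9, had medians of 9.31 and 2.49 FPKM and differed by 1.68. SMAD1, which carries the BMP signal, ranged from 7.65 to 28.7 FPKM in oocytes against 0.377 to 3.24 FPKM in outerCCs, a difference of 2.25 (SE 0.17), and SMURF1, a ligase that removes SMADs, differed by 2.71. The type II receptors differed less, with BMPR2 at 0.65 (adjusted p = 0.00213, lost under a scaling), TGFBR2 at 0.76, ACVR2A at 0.12 (adjusted p = 0.509) and ACVR2B at −0.48 (adjusted p = 0.239). SMAD2, which carries the activin and GDF9 signal, ranged from 87.5 to 199 FPKM in oocytes and from 28.2 to 208 in outerCCs and was not called (0.41, adjusted p = 0.0905). SMAD5 (0.90) and SMAD6 (0.57) were called as deposited but not under all scalings. ACVR2A and SMAD2 changed sign under a scaling.

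**Figure D4:**
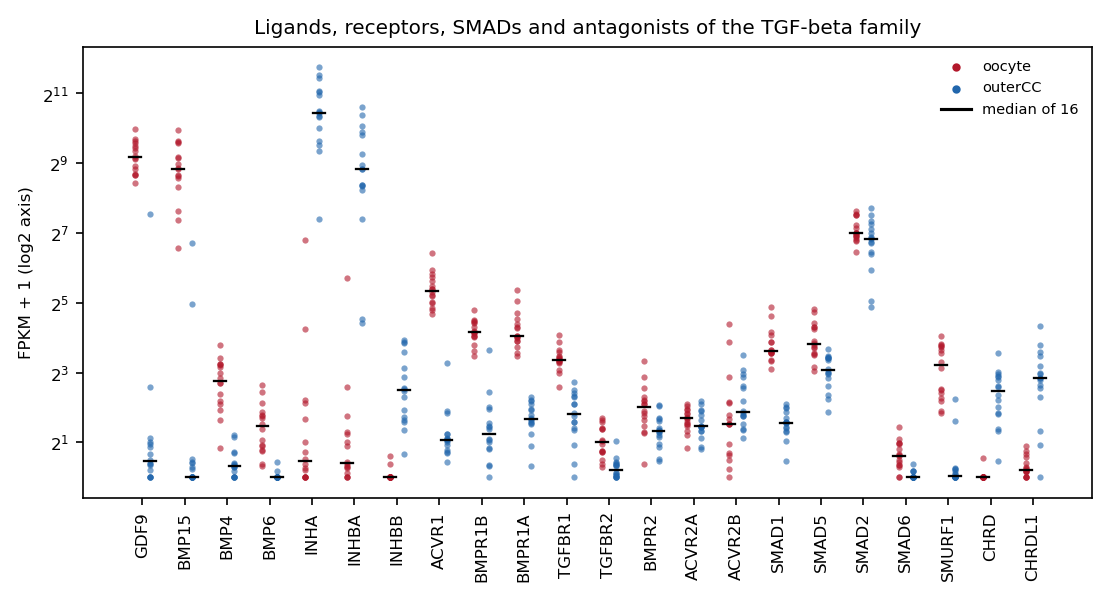
FPKM + 1 of members of the TGF-beta family in each library (y axis, log2), oocytes in red, outerCCs in blue, 1 point per library and a black bar at the median of 16. GDF9 and BMP15 stand near the top in oocytes and INHA and INHBA in outerCCs, the type I receptors ACVR1, BMPR1A and BMPR1B are higher in oocytes, and ACVR2A, ACVR2B and SMAD2 overlap.

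Receptors for the cumulus response to growth factors and hormones were higher in outerCCs. EGFR, the receptor through which the ovulatory signal passes in the cumulus, ranged from 3.66 to 25.9 FPKM in outerCCs and from 0.147 to 1.83 in oocytes, without overlap, a difference of −3.30 (SE 0.20). Its ligand BTC differed by −2.46 and ADAM17, which sheds such ligands, by −0.77, whereas the ligand NRG1 was higher in oocytes (1.2), so that 5 of 6 members were lower and 1 was higher. Of these 6, 3 were detected in outerCCs alone, and the 2 detected in both types were lower, against 28.1% of such genes. Of 12 genes of steroid synthesis and hormone response 10 were lower in oocytes. Of the 12, 9 were detected in outerCCs alone, where 89.7% of genes were called lower. Of the 2 detected in both types 1 was higher and 1 lower. CYP11A1, which begins steroid synthesis from cholesterol, ranged from 20.5 to 647 FPKM in outerCCs against a median of 0.0818 FPKM in oocytes, a difference of −6.45. The gene listed as HSD3B, the next enzyme, had medians of 74.2 and 0.496 FPKM and differed by −5.20. IGF1R, the receptor for IGF1, was lower as well (−2.41). HSD17B12, an enzyme also of fatty acid elongation, differed by 1.5 and NR0B1, a nuclear receptor that restrains steroid genes, by 3.42 with a range of 5.10 to 37.3 FPKM in oocytes.

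Immediate early genes, which respond within minutes to stimuli and to cell dissociation, were lower in oocytes in 10 of 13 cases, of which 6 were detected in outerCCs alone. Of the 7 detected in both types 4 were lower, against 28.1% of such genes. MYC ranged from 32.8 to 618 FPKM in outerCCs and differed by −5.91, IER3 by −4.95, FOSB by −4.58 and KLF6 by −4.48. The heat shock genes HSPA1A (−0.77, adjusted p = 0.0686) and HSPA8 (−0.32, adjusted p = 0.0754) were not called, nor was 1 other member. HSPA1A has a near-identical neighbour and its value is uncertain.

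The cumulus matrix was divided. LAMA1 and LUM, a laminin chain and a proteoglycan, differed by −3.52 and −3.27, and the protease inhibitor TIMP1 by −3.39. Of 10 members 6 were lower in oocytes, but HAS2, the hyaluronan synthase that builds the expanding matrix after the ovulatory signal, was higher, at 8.09 to 26.0 FPKM in oocytes (median 16.5) against a median of 0.172 FPKM in outerCCs, a difference of 3.40 (SE 0.23, 16 of 16 COCs). The highest outerCC value of HAS2 was 11.7 FPKM, in COC 192. The hyaluronan receptor CD44 (1.70) and fibronectin, FN1 (1.06), were higher in oocytes too. Of the 10 members 6 were detected in outerCCs alone, where 89.7% of genes were called lower, and 3 in oocytes alone, where 91.6% were called higher.

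Of 28 listed genes of glycolysis and lactate transport 8 were matched and tested, and all 8 were lower in oocytes, under all 4 scalings as well. Detection in outerCCs alone accounted for 4, and the 4 detected in both types stand against 28.1% of such genes called lower. LDHC, a lactate dehydrogenase that was not in this list, was higher in oocytes (7.46). ALDOA, an aldolase, ranged from 62.2 to 1586 FPKM in outerCCs and from 1.31 to 61.7 in oocytes, without overlap, a difference of −5.36 (SE 0.40). PFKL, the liver form of the phosphofructokinase that commits glucose to glycolysis, had medians of 88.1 and 0.0364 FPKM and differed by −5.99, and PFKP by −4.91. HK1, the hexokinase, differed least, at −0.54 (adjusted p = 0.00997). Most enzymes of this pathway had no symbol in the sources used here and were not matched.

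Of 10 genes around pyruvate and the TCA cycle 7 were lower in oocytes. Detection in both types held for 8 of the 10, of which 5 were lower, against 28.1% of such genes. IDH3B, of the NAD-linked isocitrate dehydrogenase, ranged from 14.8 to 139 FPKM in outerCCs and from 1.25 to 15.4 in oocytes and differed by −3.23, and IDH2 by −3.89. PDK3, a kinase that switches off pyruvate dehydrogenase, was the exception at 30.8 to 166 FPKM in oocytes against 3.44 to 38.6 in outerCCs, a difference of 2.95 (SE 0.19), whereas PDK4 differed by −1.48. The other 2 were not called. Cholesterol genes were lower in 4 of 5 cases, among them APOA1 (−7.28) and APOE (−6.42), and 1 was not called. Of 3 redox genes 2 were lower, among them the metallothionein MT1A (−4.79), and 1 was not called. The lower cholesterol and redox genes were all detected in outerCCs alone, where 89.7% of genes were called lower.

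Amino acid carriers were split by member. SLC38A2 and SLC38A1, of system A, differed by −5.73 and −2.72, SLC38A2 with 35.6 to 158 FPKM in outerCCs against a median of 0.107 FPKM in oocytes. SLC1A5, a carrier of neutral amino acids, ranged from 10.3 to 71.8 FPKM in oocytes and from 0.363 to 6.07 in outerCCs, without overlap, a difference of 3.40 (SE 0.26). In all, 5 of 7 members were lower and 1 was higher in oocytes. Detection in outerCCs alone accounted for 4 of the 7, against 89.7% of such genes called lower.

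The remaining lists went both ways. Many of their members were detected in 1 type alone. Of genes detected in oocytes alone 91.6% were called higher, and of those in outerCCs alone 89.7% lower. Detection in oocytes alone held for 5 of 10 cyclic nucleotide genes, 3 of 7 chromatin genes and 2 of 8 apoptosis genes. It also held for 5 of 9 secretory genes and 1 of 3 contact genes. In the same order, detection in outerCCs alone held for 3, 4, 3, 2 and 0. The counts below therefore say nothing particular about these lists. For cyclic nucleotides, which keep the oocyte arrested, the phosphodiesterases PDE5A (3.06) and PDE3A (2.15) and the receptor GPR12 (1.65) were among 5 genes higher in oocytes, and the subunits of soluble guanylate cyclase GUCY1B3 (−1.99) and GUCY1A3 (−0.67) and the receptor NPR3 (−1.24) among 4 lower, of 10. GPR3, the receptor that keeps cAMP high, was called at 0.60 (adjusted p = 0.00843) but not under all scalings, and 1 member was not called. Of 7 chromatin genes, H1FOO (7.05), DNMT3B (1.23) and KMT2B (0.61, not under all scalings) were higher and 4 were lower, including the demethylase KDM5B (−2.41) and the H3K36 methyltransferase SETD2 (−1.73). Among apoptosis regulators 3 of 8 were higher, CASP6 with 195 to 382 FPKM in oocytes against 0.934 to 69.8 in outerCCs (4.52), BCL2L11 (2.00) and TP63 (1.69), the guardian of oocyte quality, and 3 were lower, led by BAK1 and FAS, both at −2.01. The other 2 were not called. Of 9 secretory genes 6 were higher, among them ASTL (4.60), the cortical granule protease that hardens the zona, and NSF (2.74), and NAPA (−1.09) and RAB3A (−0.86) were lower. At the cell contacts CTNNA1 (1.36) and GJB2 (1.14) were higher and CTNNB1 was not called (−0.33, adjusted p = 0.124).

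**Figure D5:**
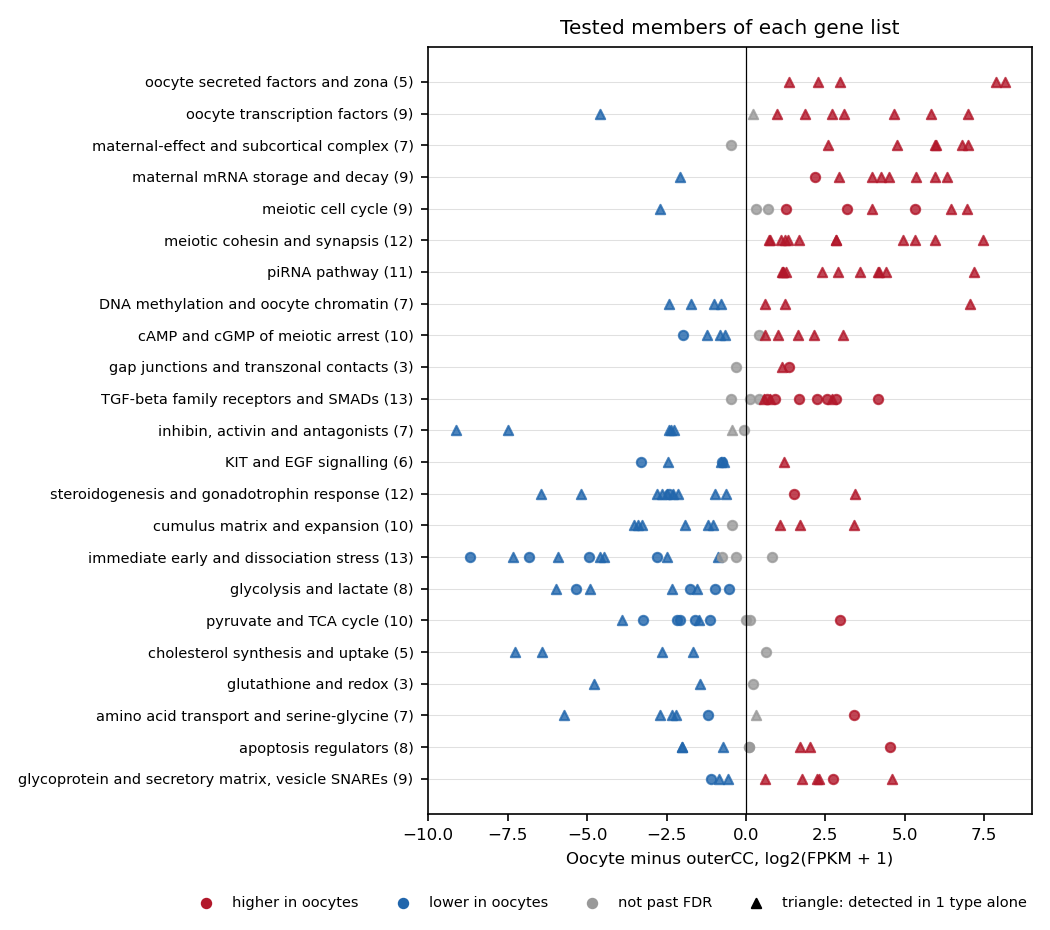
Fitted difference of each tested member of 23 lists, oocyte minus outerCC on the log2(FPKM + 1) scale (x axis), red where higher and blue where lower in oocytes at an FDR under 0.01, grey otherwise, circles for genes detected in both types and triangles for genes detected in 1 type alone, with the number tested in parentheses. Members of the meiotic cohesin and synapsis, piRNA and secreted factor lists, all detected in oocytes alone, lie to the right, and those of glycolysis all lie to the left.

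Markers of cell types that should be absent showed a mixed picture. Of the theca markers COL1A1 (−2.64) and TAGLN (−1.64) were present in outerCCs, with a summed level of 2.07 to 79.9 FPKM (median 6.97). The 79.9 FPKM was that of COC 192, where TAGLN was 49.4 FPKM. Of the stromal markers LUM, COL1A1 and PDGFRA were present in outerCCs. These and the theca markers were detected in outerCCs alone, where 89.7% of genes were called lower. The sum for all 4 matched stromal markers was 7.4 to 89.3 FPKM, and COL1A2 among them was higher in oocytes (0.94). Both sums were under 3 FPKM in every oocyte. The 3 matched endothelial markers KDR (3.09), TEK (3.05) and VWF (1.83) were higher in oocytes. The 2 matched leukocyte markers CD3E (2.46) and CSF1R (2.45) were higher as well. All these markers were detected in oocytes alone, where 91.6% of genes were called higher, so the calls say nothing particular about them. Their sums ranged from 12.9 to 34.4 and from 4.66 to 19.3 FPKM in the 16 oocytes, and from 0.0759 to 3.03 and from 0 to 6.55 FPKM in outerCCs. KDR, the VEGF receptor, was at or above 2.11 FPKM in every oocyte and at or below 0.606 in every outerCC library. The other 3 endothelial and 6 leukocyte markers were not matched to an identifier, erythrocyte markers were matched for 0 of 5, and the part of other cells in these results was not tested. The granulosa marker IGFBP2 was higher in oocytes as well (2.09), against the other 7 markers of its list.

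Some libraries stood apart from others of their type. The outerCC library of COC 180 was the lowest of 16 in 4539 of 7168 genes (63.3%) that exceeded 0.5 FPKM in every outerCC, and its FPKM summed to the lowest total, 161294. INHBA was 20.3 FPKM there, CYP11A1 20.5 and CYP19A1, the aromatase, 0.437, the lowest value of each. The oocyte library of COC 180 was likewise the lowest in 2191 of 6702 such genes (32.7%). There BMP15 was 93.4 FPKM, AURKA 402 and PABPN1L, a nuclear poly(A)-binding protein, 0.309, the lowest of 16 in each case, whereas WEE1 was 19.1 FPKM against 0.649 or less in the other 15 oocytes. The outerCC library of COC 192 had a different profile, in which 35 genes exceeded 4 times the next highest outerCC. TIMP1 reached 233 FPKM there against 25.6 in the next, MT1A 1007 against 99.5 and MYC 618 against 174. In the same library KRT2 (8.17 FPKM) was the lowest of 16. In the outerCC library of COC 191 the number of such genes was 41, and in the remaining 30 libraries it was 4 or less.

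The types also differed in how transcripts were spread over genes. Without COC 191, the 100 most abundant genes held 25.4% to 33.1% of all FPKM in oocytes and 37.6% to 63.7% in outerCCs. The highest outerCC share, 63.7%, was that of COC 190. In COC 191 the shares were 22.5% in the oocyte and 31.9% in the outerCCs. The oocyte share was the lower in 16 of 16 COCs, by a mean of 14.6 percentage points (exact two-sided sign-flip permutation p = 3.1e-05, the smallest that 16 COCs allow). For the 10 most abundant genes it was lower in 15 of 16 (mean 9.30% against 16.1%, p = 9.2e-05 in the same exact permutation). Oocytes listed a mean of 10245 genes above 0.5 FPKM and outerCCs a mean of 10566. The mean paired difference was −321 (SD 758, n = 16, exact permutation p = 0.112). Without COC 186, whose outerCC library listed the fewest genes of its type (9054), the mean difference was −453 (exact permutation p = 0.00677). That library also had the lowest estimated relative depth of the outerCCs (0.212). Leaving out any other single COC gave exact permutation p-values from 0.078 (COC 181) to 0.211 (COC 176).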

How the data were processed

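Per the labels and the study's methods, the authors mapped reads with STAR 2.5.2 against UMD3.1, discarded reads with several matches, marked and dropped duplicates in Picard 2.5, and let Cufflinks 2.2.1 estimate FPKM for Ensembl 87 genes. FPKM are the sole unit of the deposited tables, of which the unfiltered one was used. Genes were tested with limma 3.58.1 in R 4.3.3 (eBayes without trend) on log2(FPKM + 1) with the COC as a block and a Benjamini-Hochberg FDR under 0.01. Libraries with the same number come from the same COC by design. Their deviations from the type means hardly correlated (mean r 0.0102, from −0.212 to 0.198, against −0.00271 for other COCs). Measures per library were compared with exact sign-flip permutations. Python 3.11.15 and scipy 1.17.1 were used.

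The members and lists were chosen with earlier results of these data known. Named genes were the 12 of largest difference in each direction that had a symbol, passed the FDR with and without COC 191 and went the same way in the 15 other COCs, the 10 most abundant with a symbol in each type, and members of the lists, apart from a few that are not reported here. Gene symbols came from name columns of the study's supplements, which cover 4181 (33.7%) of the genes tested, and 4067 of the 4185 names read were found in RefSeq. Values of those supplements were not used. No genome or annotation of this build was used, so no coordinates are given. Whether the COCs came from separate animals is not given, and p-values measure the spread between these COCs. The study's collection batches are not assigned to COCs in the sources used here, so no batch term was fitted, and the COC sets 176 to 184 and 185 to 192 were also fitted apart.

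Depth is not recorded in FPKM. A relative depth was estimated from ratios of small FPKM between libraries, and the estimates fitted 98.2% of the 492 pairs with a clear mode within 0.05. It ranged from 0.409 to 2.52 in oocytes other than COC 191 (7.22) and from 0.212 (COC 186) to 1.38 in outerCCs. A low or zero value in a shallow library is less certain. On simulated data with 12422 genes, limma called 26 of 50 genes raised by 1, 49 of 50 raised by 2, 23 of 50 lowered by 1 and 45 of 50 lowered by 2, with 2 false calls among 12222. Both simulated types were drawn as normal values from the outerCC means and spreads, and only those sets of 50 genes were changed. The real comparison called 77.5% of genes, and shifts in scaling or RNA of the other type were not simulated. These rates therefore cannot be carried over to it. Alternatives covered the block, the pseudocount, the filter, the scaling, the filtered table, the trend, a signed-rank test, a covariate for the number of genes, and leaving out each COC. After the data were seen, 2 more were added, leaving out COCs 181, 190 and 191 together, and leaving out COC 191 with the 75th percentile scaling.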

Additional observations from a re-analysis of the deposited data

How the results depend on the processing

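The counts of 5392 higher and 4230 lower genes stayed within 1.5 times under every alternative run, from 4176 to 5667 and from 3276 to 5637, and none of the 9622 calls became a call in the other direction. Leaving out each COC gave 5253 to 5435 higher and 4077 to 4343 lower genes and kept 97.6% to 99.0% of the calls. Without COCs 181, 190 and 191 together the counts were 5111 and 4328. The fit without COC as a block gave 5394 and 4255, and the pairing thus moved no count by more than 1.5 times. The median difference of 0.26 changed sign without the filter on low FPKM (−0.02), with the 75th percentile (−0.32), with median of ratios (−0.10) and with the 75th percentile without COC 191 (−0.34). The paired difference in genes above 0.5 FPKM ranged from −453 to −246 when each COC was left out. Among named genes the sign changed for 6. With the 75th percentile CALM was −0.13, TAF4B −0.07, ACVR2A −0.39, SMAD2 −0.39 and CTSB −0.01, and without COC 191 as well CALM was −0.11, TAF4B −0.10, ACVR2A −0.43 and SMAD2 −0.42. ACVR2A was −0.07 with sums and −0.19 with ratios, SMAD2 −0.09 with ratios and −0.52 with quantiles, CTSB −0.10 with quantiles, and ACVR2B 0.17 in COCs 185 to 192. The cause was not tested. FPKM carry no depth, so values near 0 in shallow libraries are the least certain.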

Other observations

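The lists in this part were chosen after their values were seen and are descriptions. Genes that license replication origins or build the centromere and spindle were mostly higher in oocytes, 9 of 13, all detected in both types, against 43% of such genes. DLGAP5, a spindle protein, ranged from 111 to 445 FPKM in oocytes and from 1.72 to 63.7 in outerCCs, a difference of 4.81, and NUSAP1, another, differed by 4.15. The origin recognition subunits ORC6 (4.09), ORC4 (3.53) and ORC3 (3.46) were higher in oocytes, whereas the replicative helicase subunits MCM2 (−1.33), MCM7 (−1.13) and MCM5 (−1.12) were lower. The remaining member was not called.

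All 8 tested genes of endoplasmic reticulum folding were lower, 6 of them detected in both types, against 28.1% of all such genes. Among them were CALR, a calcium-binding chaperone, at 148 to 951 FPKM in outerCCs and 16.8 to 68.5 in oocytes (−3.63) and HERPUD1 at −5.62. Of 10 genes that modify or escort collagen 8 were lower, among them the lysyl hydroxylases PLOD1 (−5.97), PLOD2 (−5.49) and PLOD3 (−4.30), while the prolyl hydroxylase P4HA3 was higher (4.01, with a mean of 23.8 FPKM in oocytes). Of these 10, 9 were detected in outerCCs alone, where 89.7% of genes were called lower, so the count says nothing particular about them. Lysosomal hydrolases were lower in 8 of the 10 tested, led by the protease CTSD (−4.44), and the glycosidase FUCA1 (−4.11) was among them. Detection in outerCCs alone accounted for 5. Of the 5 detected in both types 3 were lower, against 28.1% of such genes. GNPTAB (1.0), which tags hydrolases for the lysosome, was higher, and CTSB (0.78, adjusted p = 0.0056) was called higher as deposited but changed sign with the 75th percentile and with quantiles.

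Mitochondrial ribosomal proteins, all 20 detected in both types, were divided, 8 higher in oocytes, 5 lower and 7 not called. Of all genes detected in both types 43% were higher and 28.1% lower, so these counts say nothing particular about the list. Under all 4 scalings 5 remained higher and 5 lower. MRPL20 (3.37), MRPL48 (2.51) and MRPL19 (2.12) stood at one end and MRPL24 (−2.24) and MRPL28 (−2.06) at the other. Complex I subunits, all 9 detected in both types, split likewise, 3 higher, 3 lower and 3 not called, from NDUFB6 (1.72) to NDUFV1 (−1.98). The same shares of all such genes apply, and 2 of the 3 higher subunits were so under all 4 scalings. Epithelial junction genes differed by member, with OCLN (6.81), ESRP1 (5.79) and EPCAM (5.75) higher in oocytes and JAM2 (−4.85) and JUP (−4.73) lower. Of 11 regulators of G-protein signalling 7 were higher in oocytes, among them RGS16 (5.30) and RGS10 (4.4), and RGS17 (−3.62) was lower. Of the 11, 5 were detected in oocytes alone, where 91.6% of genes were called higher. Another 4 were detected in outerCCs alone, where 89.7% were called lower.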
